A study of Mus musculus with 28 samples.

Results

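Transcripts of RNA splicing factors and RNA helicases were examined in whole mouse brain, both untreated and 1 hour after injected nicotine had caused a seizure. The members were all probe sets paired with a single gene symbol beginning with Hnrnp, Srsf, Sf3, Snrp, Ddx, Dhx or Rbm. There were 123 of them for 87 genes, among 10833 probe sets with 1 gene and 8251 such genes in all. A probe set was tested when its signal exceeded its own array's median on at least 3 arrays, which left 103 probe sets of 79 genes. The other 20, among them the only probe sets of 8 genes, gave weak signals and were not tested. By family, the tested probe sets comprised 19 Hnrnp, 14 Srsf, 10 Sf3, 9 Snrp, 30 Ddx, 6 Dhx and 15 Rbm.

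Before a messenger RNA leaves the nucleus, its introns are removed by the spliceosome, whose small nuclear ribonucleoproteins carry the Sm and other Snrp proteins and whose SF3 complex holds the branch point. SR proteins (Srsf genes) mostly favour the use of the exons they bind, hnRNP proteins bind nascent transcripts and often oppose it, and the balance between them helps to set which exons a neuron includes. DEAD-box and DEAH-box helicases (Ddx and Dhx genes) remodel RNA and its bound proteins in splicing, translation and ribosome assembly, and proteins named Rbm share little beyond an RNA-binding domain. The brain uses alternative splicing heavily, in ion channels and synaptic proteins among others. The arrays measure transcript level at the probe set and do not measure splicing itself.

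All 28 mice were of the C57BL/6J strain, both sexes were present in each group, and each mouse gave 1 array. Mice after seizure comprised 5 alpha7 L250T heterozygotes of 8 weeks, 4 beta4 null mice of 7 to 8 weeks and 3 wild-type mice of 7 to 8 weeks. Untreated mice comprised 5 alpha7 L250T heterozygotes of 6 to 8 weeks, 5 beta4 null mice of 6 to 9 weeks and 6 wild-type mice of 6 to 9 weeks. L250T is a substitution in the alpha7 subunit of the nicotinic acetylcholine receptor, carried here on 1 of the gene's copies, and the null mice lack the beta4 subunit. Nicotine was given at a dose set for each genotype to reach a similar seizure score, so genotype and dose cannot be told apart in seized mice. No group received an injection without a seizure. Mice titled LT made up all alpha7 L250T mice and mice titled B4 all beta4 null mice, while the wild-type mice came from both. In RNA from a whole brain, fewer cells of a type and less RNA per cell cannot be told apart.

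Several properties of the arrays and mice did not fall evenly over the groups. On 9 arrays the log2 ratio of the 3 prime over the 5 prime Gapdh control lay between -0.48 and 0.096 (low-ratio arrays), and on the other 19 it lay between 1.13 and 2.57 (high-ratio arrays). The low-ratio arrays came from 3 seized and 2 untreated alpha7 L250T mice and from 2 seized and 2 untreated beta4 null mice, and none came from a wild-type mouse. Of the untreated mice, 4 of 5 alpha7 L250T and 3 of 6 wild-type mice were 6 weeks old, whereas no seized mouse was. Neuronal markers were present, with 9 of 9 measured genes tested, and 1 of 5 measured liver genes passed the filter. In alpha7 L250T mice the summed signal of 8 endothelial markers was 790.3 to 1019 after seizure, against 1159 to 1808 untreated. Of these markers 7 were tested and 2 called lower. The sum of 9 neuronal markers was 12500 to 16110, against 10130 to 12730 untreated (1 called higher). Of all probe sets, 1.09% were called lower and 1.71% higher. No astrocyte, oligodendrocyte, microglia, blood or liver marker was called there, and each of those sums overlapped between seized and untreated mice. The part of these cell type markers in the results below was not tested.

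The promoters of 5 of the 6 members that differed after seizure in alpha7 L250T mice are shown because these members moved in the same mice. Each run is 300 bases from RefSeq (GRCm38.p6), read 5′ to 3′ on the gene's own strand, and covers 250 bases before and 50 after the annotated start. The windows lie at chrX:134600929-134601228 on the plus strand for Hnrnph2, chr13:58402068-58402367 on the minus strand for Hnrnpk, chr11:88047123-88047422 on the plus strand for Srsf1, chr1:153487611-153487910 on the minus strand for Dhx9 and chr17:33685409-33685708 on the minus strand for Hnrnpm. Capitals mark any match, on either strand, to the cAMP response element TGACGTCA or its half-site TGACG, the AP-1 element TGANTCA, the EGR element GCGTGGGCG or the GC box GGGCGG. The half-site is contained in the full element.
Hnrnph2: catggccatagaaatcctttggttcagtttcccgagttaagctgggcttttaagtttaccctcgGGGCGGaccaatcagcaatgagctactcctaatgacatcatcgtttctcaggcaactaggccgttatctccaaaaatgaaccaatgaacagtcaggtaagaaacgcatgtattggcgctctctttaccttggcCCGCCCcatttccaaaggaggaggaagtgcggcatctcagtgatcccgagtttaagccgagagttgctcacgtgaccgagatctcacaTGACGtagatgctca
Hnrnpk: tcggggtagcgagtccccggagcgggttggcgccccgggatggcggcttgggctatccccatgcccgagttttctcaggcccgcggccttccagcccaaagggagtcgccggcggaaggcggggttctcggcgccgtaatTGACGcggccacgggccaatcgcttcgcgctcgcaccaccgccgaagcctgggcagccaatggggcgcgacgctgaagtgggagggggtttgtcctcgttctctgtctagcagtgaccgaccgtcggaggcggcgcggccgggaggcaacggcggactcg
Srsf1: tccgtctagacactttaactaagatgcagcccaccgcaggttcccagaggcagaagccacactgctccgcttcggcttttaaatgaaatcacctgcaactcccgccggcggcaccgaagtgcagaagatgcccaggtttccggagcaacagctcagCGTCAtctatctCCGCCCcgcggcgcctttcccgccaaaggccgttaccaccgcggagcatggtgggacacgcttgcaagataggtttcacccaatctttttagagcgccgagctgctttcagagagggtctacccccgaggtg
Dhx9: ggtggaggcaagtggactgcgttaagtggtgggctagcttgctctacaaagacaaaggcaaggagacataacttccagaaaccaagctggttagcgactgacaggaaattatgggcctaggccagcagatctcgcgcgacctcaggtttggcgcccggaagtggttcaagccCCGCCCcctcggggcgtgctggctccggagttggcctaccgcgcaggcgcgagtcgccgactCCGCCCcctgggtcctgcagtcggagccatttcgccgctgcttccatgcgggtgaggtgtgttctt
Hnrnpm: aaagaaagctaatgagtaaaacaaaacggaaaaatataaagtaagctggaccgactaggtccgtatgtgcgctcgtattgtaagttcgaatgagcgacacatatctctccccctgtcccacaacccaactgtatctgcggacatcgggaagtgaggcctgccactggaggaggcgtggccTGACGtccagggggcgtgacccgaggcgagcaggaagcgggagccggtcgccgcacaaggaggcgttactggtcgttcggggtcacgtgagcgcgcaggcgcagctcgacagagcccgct
The half-site occurred once in the windows of Hnrnph2, Hnrnpk, Srsf1 and Hnrnpm and was not found in that of Dhx9. GC boxes numbered 2 in Hnrnph2, 1 in Srsf1 and 2 in Dhx9, with no match in Hnrnpk or Hnrnpm. None of these windows held the full cAMP element, the AP-1 element or the EGR element. Hnrnph1, the remaining member, has 5 annotated windows, each with 1 half-site, and they are not printed. Among 92 windows of 72 tested member genes, 44.6% held a half-site and 64.1% a GC box, against 20.8% and 35.7% of all 32851 windows. The full element was found in 5.43% of the members' windows and 1.79% of all, the AP-1 element in 3.26% and 7.81%, and the EGR element in 1.09% and 0.612%. The members' windows are of genes that passed the signal filter, while the whole set of windows was not filtered by signal. A gene with several annotated windows counts once for each. These shares are therefore not of matched sets, and their differences were not tested. A match describes the letters of the window and does not show that a factor binds there.

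One hour after seizure in alpha7 L250T mice, 5 member probe sets rose and 1 fell against untreated alpha7 L250T mice, which is 6 of 103 (5.83%; limma, adjusted p under 0.05). The background over all 7350 probe sets tested was 2.8%, or 1.71% higher and 1.09% lower. Those that rose were Hnrnph2, Hnrnpk, Hnrnph1, Srsf1 and Dhx9, and Hnrnpm fell. By family, 4 of the 19 Hnrnp probe sets, 1 of 14 Srsf and 1 of 6 Dhx were called, and none was called among Sf3, Snrp, Ddx and Rbm. The median log2 difference was 0.33 in the Hnrnp family and between 0.029 and 0.21 in the other families, beside 0.015 over all probe sets. None of these median values was tested.

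Hnrnph2 encodes hnRNP H2, which binds runs of guanines in pre-mRNA, and lies on the X chromosome. Its signal was 263, 143, 128, 154 and 110.1 in seized alpha7 L250T mice, against 42.9, 38.9, 33.9, 63.3 and 104 in untreated alpha7 L250T mice. Every seized mouse lay above every untreated one, and the highest untreated value came from the only untreated alpha7 L250T mouse that was 8 weeks old. The difference was 1.55 ± 0.28 on the log2 scale, or 2.93-fold (limma, adjusted p = 0.0043). In wild-type mice the signal was 96.0, 112 and 94.9 after seizure, against a lowest, median and highest value of 60.2, 76.6 and 93.0 in the 6 untreated mice. These groups also did not overlap, yet the difference of 0.39 ± 0.31 did not pass (limma, adjusted p = 1.0). In beta4 null mice it was 172, 145, 91.0 and 84.5 after seizure, against 142, 174, 92.8, 79.2 and 79.8 untreated. There the groups overlapped (0.13 ± 0.30), and in both beta4 null groups the 2 highest values were those of the low-ratio arrays. The fitted difference between array classes within groups was 0.45 for Hnrnph2, higher on low-ratio arrays (limma, adjusted p = 0.0445). It rests on alpha7 L250T and beta4 null mice, since no wild-type mouse had a low-ratio array. In alpha7 L250T mice the classes overlapped, with low-ratio values of 263, 143 and 128 against 154 and 110.1 after seizure. In untreated alpha7 L250T mice the low-ratio values were 33.9 and 63.3, against 42.9, 38.9 and 104.

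Hnrnpm encodes hnRNP M, a splicing regulator that binds sequences rich in guanine and uracil. Its signal was 271, 255, 419, 366 and 313 in seized alpha7 L250T mice, against 669, 818, 472, 589 and 347 in untreated ones. All seized mice lay below the untreated mean, and the groups overlapped only through the untreated mouse of 8 weeks, which had the lowest untreated value. The log2 difference was -0.80 ± 0.17 (limma, adjusted p = 0.012). In wild-type mice the signal was 365, 394 and 362 after seizure, against 438 to 504 with a median of 459 untreated. Those groups did not overlap, and the difference of -0.32 ± 0.19 did not pass (limma, adjusted p = 1.0). In beta4 null mice the seized values of 319, 315, 478 and 363 overlapped the untreated values of 339, 345, 414, 448 and 371, with a difference of -0.069 ± 0.18.

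Hnrnpk encodes hnRNP K, which binds runs of cytosines and acts in splicing, translation and transcription. Its signal was 449, 329, 404, 307 and 386 in seized alpha7 L250T mice, against 267, 241, 232, 231 and 269 in untreated ones. The groups did not overlap, and the difference was 0.59 ± 0.11 (limma, adjusted p = 0.0058). Untreated alpha7 L250T mice also lay below all other groups, since the seized wild-type values were 371 to 398, the untreated wild-type values 309 to 380, the seized beta4 null values 297 to 386 and the untreated beta4 null values 284 to 370.3. Hnrnph1, the autosomal relative of Hnrnph2, had 800.4, 674, 845, 604 and 683 after seizure in alpha7 L250T mice, against 501, 443, 467, 549.7 and 566 untreated. Again every seized value exceeded every untreated one (0.51 ± 0.11; limma, adjusted p = 0.016). Seized and untreated Hnrnph1 values were 543 to 678 and 555 to 698 in wild-type mice, and 588 to 798 and 615 to 763 in beta4 null mice, so both pairs overlapped.

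Srsf1, the SR protein also known as SF2/ASF, had 166, 163, 107, 127 and 126 in seized alpha7 L250T mice, against 80.8, 104, 71.0, 59.3 and 105 in untreated ones on one of its 2 tested probe sets. The groups did not overlap (0.73 ± 0.17; limma, adjusted p = 0.020), with the lowest seized value close to the highest untreated one. The other tested Srsf1 probe set gave 123, 67.7, 47.5, 35.5 and 31.2 after seizure, against 57.3, 112, 107, 44.4 and 52.7 untreated. It differed by -0.38 (limma, adjusted p = 0.75), so the probe sets of this gene disagree in sign, and a further 2 were too weak to test. Dhx9 encodes RNA helicase A, which unwinds double-stranded RNA. It had 133, 125, 129, 120.0 and 132 in seized alpha7 L250T mice, against 105, 93.5, 46.3, 62.8 and 119.8 in untreated ones. The seized mice were tightly grouped just above the highest untreated mouse (0.66 ± 0.18; limma, adjusted p = 0.046).

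**Figure D1:**
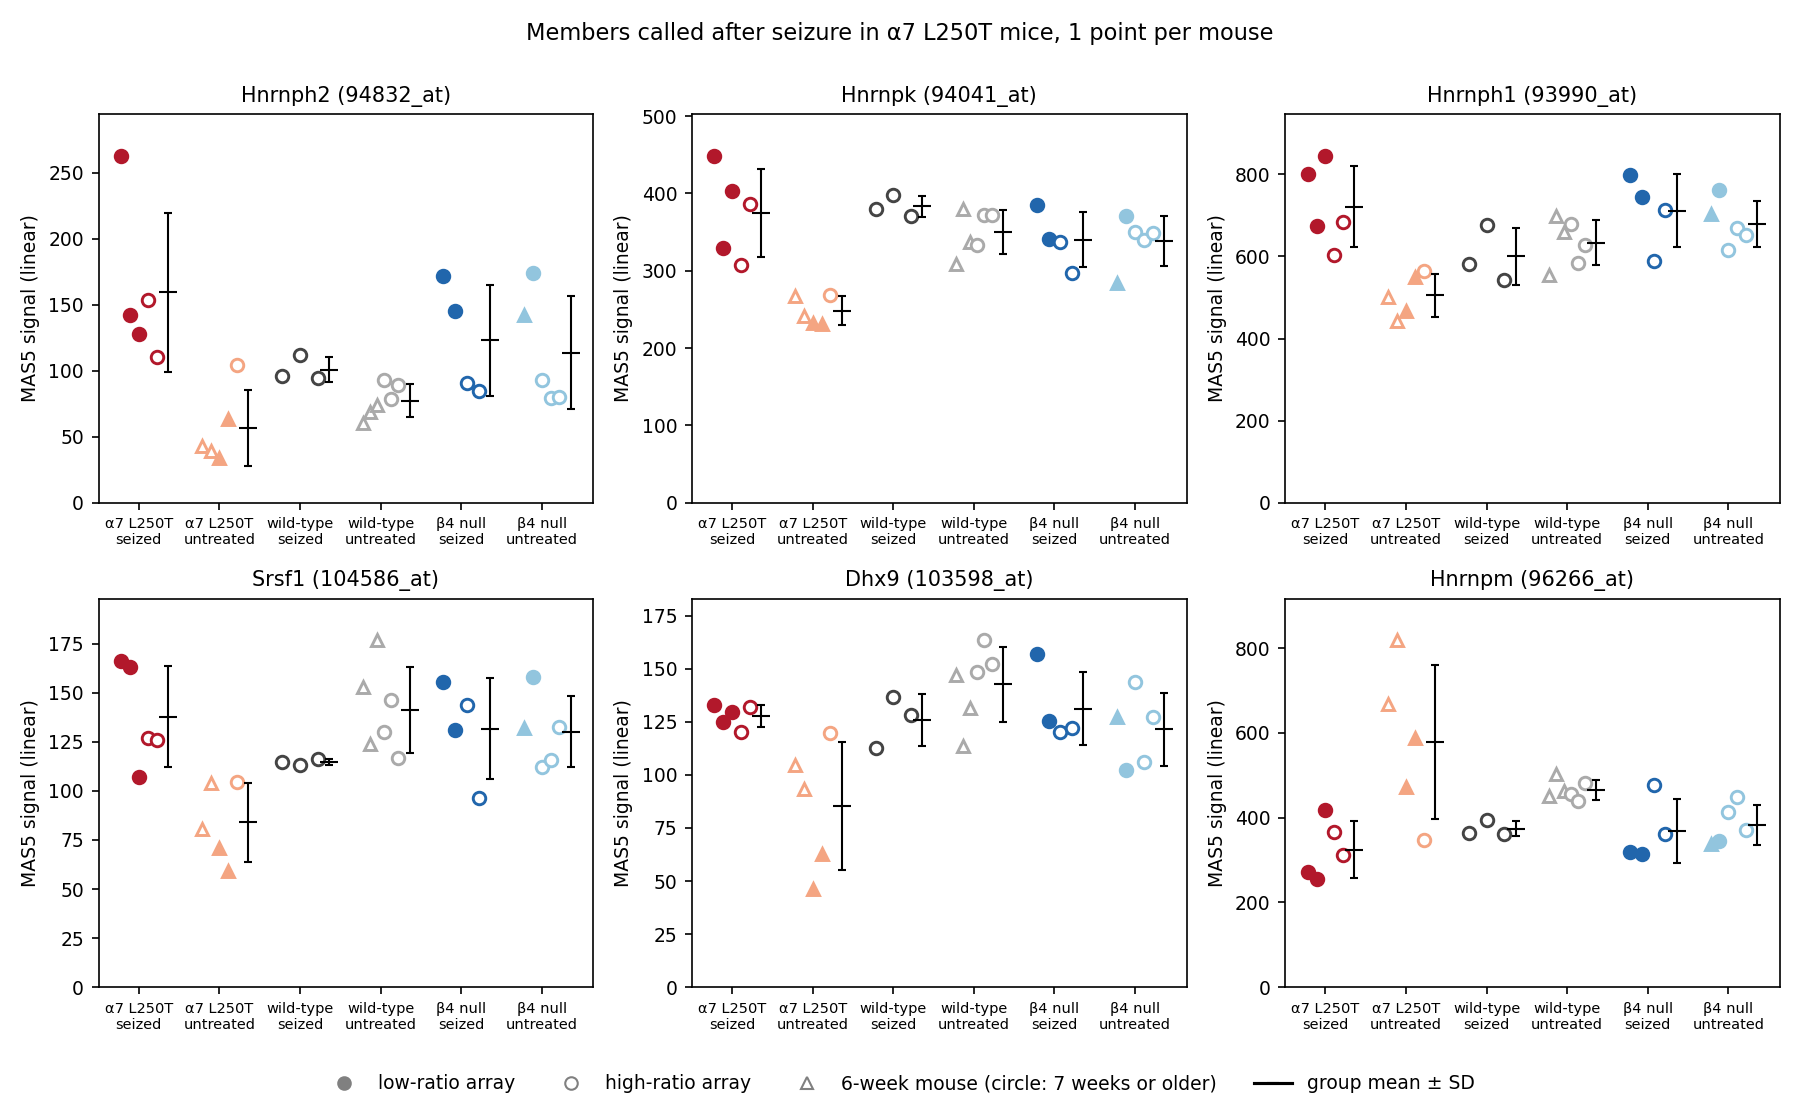
MAS5 signal on a linear scale for each mouse in the 6 groups, for the 6 members called after seizure in alpha7 L250T mice. Filled symbols are low-ratio arrays, triangles 6-week mice, and bars the group mean ± SD (n = 3 to 6). The members were chosen by their difference in these same mice. Seized alpha7 L250T mice lie above the untreated ones for Hnrnph2, Hnrnpk and Hnrnph1, and by a narrow margin for Srsf1 and Dhx9. For Hnrnpm the untreated alpha7 L250T mouse of 8 weeks falls among the seized mice. How many of all probe sets separate in this way was not counted.

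In every one of these 6 members the untreated alpha7 L250T mouse of 8 weeks had the value nearest to the seized mice. A 6-week mouse was almost level with it for Hnrnpk (267.2 against 269.0) and Srsf1 (104.2 against 104.6). For Hnrnph1 the margin was also small (549.7 against 565.6). How often this mouse lies nearest over all probe sets was not counted. With age as a covariate none of the 6 was called, and the differences were 1.20 for Hnrnph2, 0.48 for Hnrnpk, 0.44 for Hnrnph1, 0.63 for Srsf1, 0.54 for Dhx9 and -0.67 for Hnrnpm. Among mice of 7 weeks or older, which leaves that single untreated alpha7 L250T mouse, they were 0.54, 0.47, 0.34, 0.38, 0.093 and -0.12 in the same order, and none was called. On high-ratio arrays alone (2 seized against 3 untreated alpha7 L250T mice) they were 1.22, 0.41, 0.36, 0.40, 0.26 and -0.76, and none was called. On low-ratio arrays alone (3 against 2) they were 1.86, 0.76, 0.60, 1.14, 1.26 and -0.78, and all 6 were called among 20 members, where 9.28% of all probe sets were called. Adding class as a covariate gave 21 member calls that included the 6, beside 13.3% of all probe sets. With the alpha7 L250T groups fitted alone none was called. Leaving out untreated alpha7 L250T mouse 3 left 3 of the calls, beside 1.05% of all probe sets. Leaving out mouse 5, the one of 8 weeks, gave 18 member calls, all 6 among them, beside 9.12% of all probe sets.

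**Figure D2:**
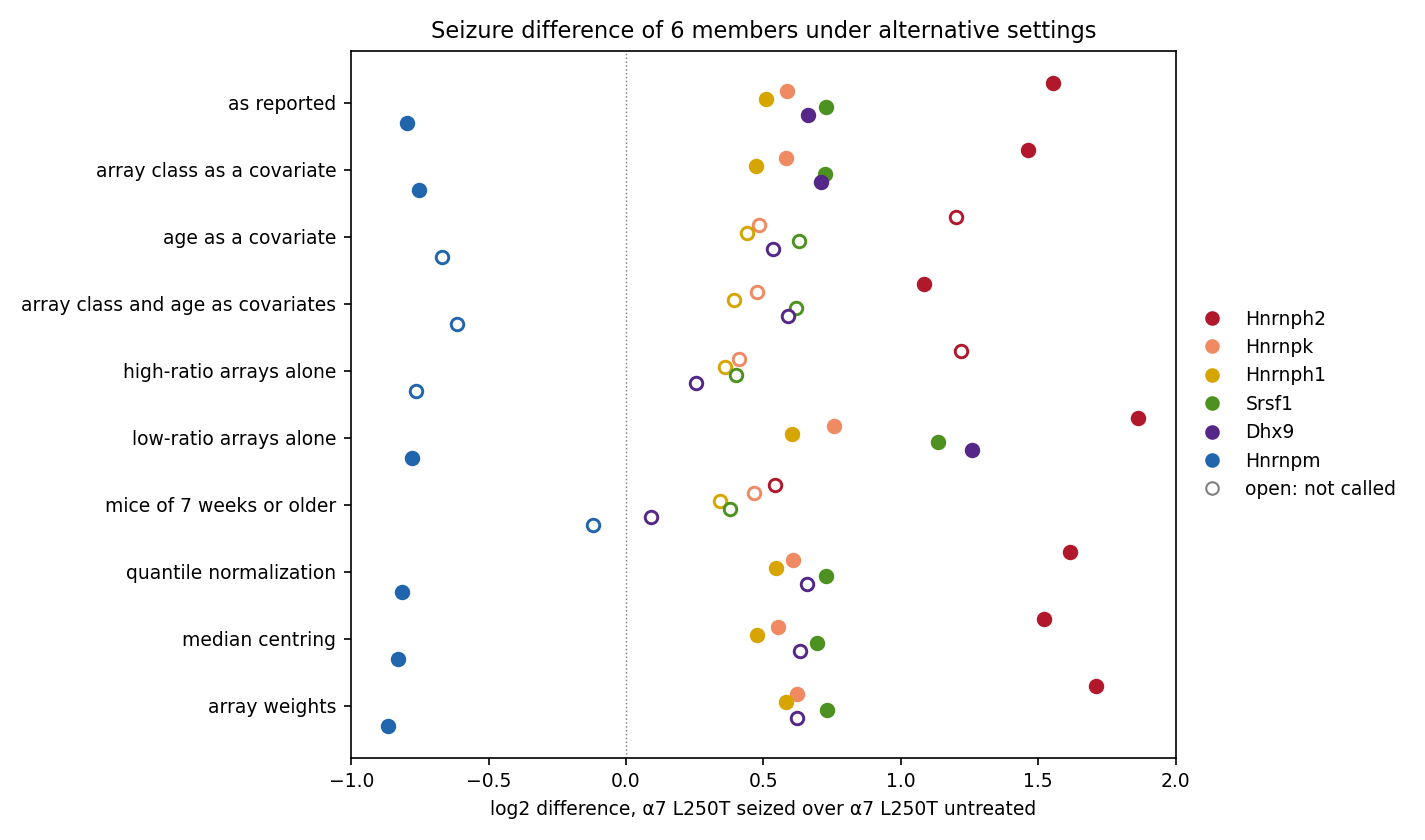
Log2 difference between seized and untreated alpha7 L250T mice for the same 6 members under 10 settings; filled points were called by limma at adjusted p under 0.05. The signs hold at each setting drawn, while among mice of 7 weeks or older Dhx9 is at 0.093 and Hnrnpm at -0.12.

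Other members of the same families missed the threshold after seizure in alpha7 L250T mice. The largest positive value was for Ddx6, a helicase that represses translation and stores messenger RNA. Its 3 probe sets gave 1.56, 0.65 and 0.45 (limma, lowest adjusted p = 0.0575). The class differences of these, low-ratio over high-ratio arrays, were 0.816, 0.18 and -0.074, and only the first was called. The 2 probe sets of Sf3b1, the scaffold of the complex at the branch point, gave 0.99 and 0.50 (limma, lowest adjusted p = 0.055). The 2 probe sets of Ddx3x, an X-linked helicase that aids translation initiation, gave 0.90 and 0.66. Low-ratio arrays read higher on both, by 1.117 and 0.54, and both class differences were called. On the first, the low-ratio arrays of seized alpha7 L250T mice read 218, 284 and 207. The high-ratio ones read 90.9 and 79.5, within the untreated alpha7 L250T range of 59.9 to 107. The 2 probe sets of Srsf3, a small SR protein that also serves in mRNA export, gave 0.84 and 0.63. The 2 probe sets of Hnrnpa2b1, whose protein also guides RNA transport in dendrites, gave 0.67 and 0.43, and Hnrnpc, which binds uridine tracts, gave 0.54. Dhx36, which unwinds G-quadruplexes, gave 0.76. Srsf4 was on the other side of 0 on both of its probe sets (-0.66 and -0.10), as was Srsf2, the SR protein SC35 (-0.58 and -0.06). Rbm14, a paraspeckle protein, gave -0.62. Ddx49 had the lowest value of any member at -1.60 with a wide error (SE 0.73; limma, adjusted p = 0.23). Its signals were weak, at 20.2, 8.58, 6.86, 26.9 and 8.18 in seized alpha7 L250T mice, where the lowest array median was 49.7. Rbm18 gave 0.58, and the hnRNP G gene Rbmx gave 0.40 and 0.30. Among the Snrp members, which build the core of the small nuclear ribonucleoproteins, values ran from -0.18 to 0.45, the highest being a pseudogene, Snrp1c-ps2. The U1 protein gene Snrpc was at -0.14.

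No member was called after seizure in the other genotypes or on average. In wild-type mice 0 of 103 were called by limma, against a background of 0.0544%, and 3 (2.91%) had an unadjusted p under 0.05, against 4.24% of all probe sets. In beta4 null mice 0 of 103 were called, against 0.0136%, and 0 had an unadjusted p under 0.05, against 1.74% of all probe sets. Over the average of the genotypes 0 of 103 were called, against 0.408% (0.327% higher and 0.0816% lower). On that average 19 (18.4%) had an unadjusted p under 0.05, against 8.64% of all probe sets. There Hnrnph2 had a difference of 0.69 ± 0.17 (limma, adjusted p = 0.091) and Hnrnpm one of -0.39 ± 0.11 (limma, adjusted p = 0.13). The interaction test, which asks whether the seizure response differs between genotypes, called 0 of 103 members against 0.0272% of all probe sets. It had 10 members (9.71%) at an unadjusted p under 0.05, against 7.66% of all probe sets. The interaction p comes from an F test over both mutant genotypes together and is not that of the alpha7 L250T difference alone. Its smallest value among members was that of Srsf1 (limma, adjusted p = 0.31). The Srsf1 response exceeded that of wild-type mice by 1.01 on the log2 scale in alpha7 L250T mice and by 0.29 in beta4 null mice. In the same order, Hnrnph2 had 1.16 and -0.27 (limma, adjusted p = 0.38) and Hnrnpm -0.48 and 0.25 (limma, adjusted p = 0.53). The calls in alpha7 L250T mice are therefore not shown to be particular to that genotype.

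**Figure D3:**
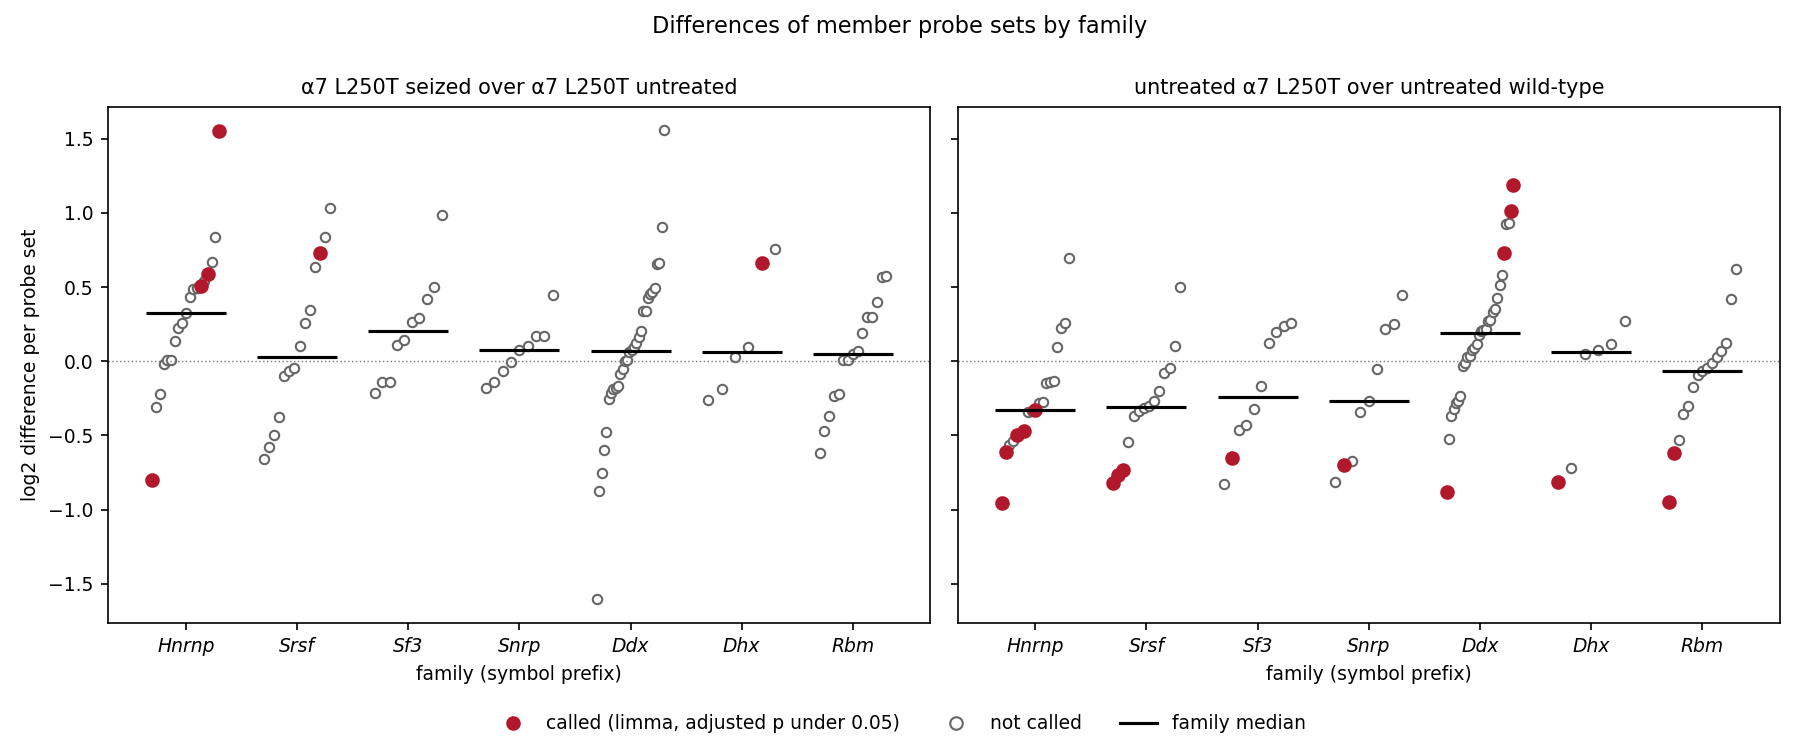
Log2 difference of each tested member probe set by family, for seized over untreated alpha7 L250T mice on the left and untreated alpha7 L250T over untreated wild-type mice on the right. Filled points were called by limma at adjusted p under 0.05 and lines are family medians. The Hnrnp median is 0.33 on the left and -0.33 on the right; both panels use the untreated alpha7 L250T mice.

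Before any nicotine, alpha7 L250T mice differed from wild-type mice in 17 of 103 member probe sets (16.5%; limma, adjusted p under 0.05), with 3 higher and 14 lower. The background in this comparison was 16%, split into 7.73% higher and 8.29% lower, so the share of members called was near that of all probe sets. The 14 lower calls were spread over all 7 families. They comprised 5 of Hnrnp, 3 of Srsf, 2 of Rbm and 1 each of Sf3, Snrp, Ddx and Dhx, and the 3 higher calls were all of the Ddx family. The family median was -0.33 for Hnrnp, -0.31 for Srsf, -0.24 for Sf3, -0.27 for Snrp and -0.07 for Rbm, against 0.19 for Ddx, 0.060 for Dhx and 0.063 for all probe sets.

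The untreated alpha7 L250T mice enter both this comparison and the seizure comparison, so their values are given side by side and not as separate evidence. Against untreated wild-type mice, untreated alpha7 L250T mice were lower, at -0.50 ± 0.11 for Hnrnpk, -0.77 ± 0.16 for Srsf1, -0.81 ± 0.18 for Dhx9 and -0.33 ± 0.11 for Hnrnph1 (limma, adjusted p = 0.010 for the first 3 and 0.043 for Hnrnph1). These are the 4 members called in both comparisons. The second Srsf1 probe set was at 0.10. Hnrnph2 and Hnrnpm were not called here, with -0.56 ± 0.27 and 0.26 ± 0.17 (limma, adjusted p = 0.14 and 0.27). When seized alpha7 L250T mice were set against seized wild-type mice, the values were -0.04 for Hnrnpk, 0.24 for Srsf1, 0.02 for Dhx9, 0.26 for Hnrnph1, 0.60 for Hnrnph2 and -0.23 for Hnrnpm. In that comparison limma called 0 of 103 members and 0% of all probe sets. There 8 members (7.77%) had an unadjusted p under 0.05, against 12% of all probe sets.

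Among the hnRNP genes, Hnrnpa2b1 had the largest difference before nicotine. One of its probe sets read 72.3, 75.6, 47.4, 38.5 and 99.5 in untreated alpha7 L250T mice, against a lowest, median and highest value of 103, 122 and 151 in untreated wild-type mice. The groups did not overlap (-0.95 ± 0.21; limma, adjusted p = 0.011), and the lowest 2 values were from low-ratio arrays, on which this probe set read lower, at -0.59. Its second probe set differed by -0.48 (limma, adjusted p = 0.053). Hnrnpu, a nuclear matrix protein that binds long RNAs, was lower, at -0.61 ± 0.18, and Hnrnpr, which accompanies messenger RNA into axons, at -0.47 ± 0.14. Hnrnpa1, the best known repressor of the family, was at -0.54 (limma, adjusted p = 0.064). The highest value in the family was 0.69, for Hnrnpl, which binds CA repeats (limma, adjusted p = 0.12).

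In the Srsf family, Srsf3 read 53.1, 59.7, 33.3, 30.8 and 69.7 in untreated alpha7 L250T mice, against 66.9, 78.9 and 113 (lowest, median and highest) in untreated wild-type mice. Only the alpha7 L250T mouse of 8 weeks reached into the wild-type range (-0.82 ± 0.24; limma, adjusted p = 0.029). Its second probe set gave -0.55 (limma, adjusted p = 0.072). Srsf11, which promotes the inclusion of very short neuronal exons, read 278, 390.1, 297, 254 and 578, against 437, 548 and 828 in wild-type mice. Again the mouse of 8 weeks was the one inside the wild-type range (-0.73 ± 0.20; limma, adjusted p = 0.023). Srsf5 and the 2 probe sets of Srsf2 were at -0.32, -0.20 and -0.37 and were not called.

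In the core spliceosome families, Sf3b6, the small SF3b protein that contacts the branch-point adenosine, was lower, at -0.65 ± 0.20 (limma, adjusted p = 0.031). The 2 probe sets of Sf3b1 gave -0.83 and -0.32, Sf3b2 -0.46, Sf3a1 0.24 and Sf3a3 0.13, none of them called. Snrpe, one of the ring-forming Sm proteins, was lower, at -0.70 ± 0.21 (limma, adjusted p = 0.031). Snrpg, another Sm protein, was at -0.67 (limma, adjusted p = 0.063) and Snrpb at 0.25. Low-ratio arrays read lower for Sf3b6, Snrpe and Snrpg, at -0.58, -0.70 and -0.88, and all 3 class differences were called.

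Among the helicases, the 3 higher calls were Ddx25, known from sperm development, and Ddx56 and Ddx54, both nucleolar proteins. Ddx25 read 98.9, 135, 267, 237 and 99.2 in untreated alpha7 L250T mice, against 52.6, 70.0 and 81.2 (lowest, median and highest) in untreated wild-type mice. The groups did not overlap (1.19 ± 0.31; limma, adjusted p = 0.020), and the highest 2 values were from low-ratio arrays. A second Ddx25 probe set gave 0.35 (limma, adjusted p = 0.18). Ddx56 read 151, 148, 253, 246 and 144, against 94.4, 111 and 122 (0.73 ± 0.23; limma, adjusted p = 0.034). Ddx54 read 96.0, 93.6, 109, 143 and 38.5, against 22.3, 48.7 and 59.3 (1.01 ± 0.35; limma, adjusted p = 0.047), and its only value inside the wild-type range was from the mouse of 8 weeks. Low-ratio arrays read higher for Ddx25, Ddx56 and Ddx54 by 1.10, 0.81 and 0.97. In beta4 null mice, too, the low-ratio arrays had the highest Ddx25 values, at 164 and 147 in seized mice and 213 and 269 in untreated mice, against 70.1 to 118 on that genotype's other arrays.

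Dhx9 was lower, as given above. Ddx17, a helicase that also acts as a transcriptional coregulator, was lower, at -0.88 ± 0.25 on one probe set (limma, adjusted p = 0.026) and at -0.24 on the other, which was not called. Its closest relative Ddx5 was at -0.01. Ddx46, which helps SF3b to engage the branch point, was at 0.93 (limma, adjusted p = 0.051) and read higher by 1.08 on low-ratio arrays. In the Rbm family, one probe set of Rbm39, a splicing factor related to U2AF, read 92.3, 50.5, 40.1, 37.4 and 107, against 91.2, 107 and 193 (lowest, median and highest) in untreated wild-type mice. Untreated alpha7 L250T mice 1 and 5 lay inside the wild-type range and the other 3 well below it (-0.95 ± 0.24; limma, adjusted p = 0.017). The other Rbm39 probe set gave -0.30 (limma, adjusted p = 0.085). Rbm18 was lower, at -0.62 ± 0.18 (limma, adjusted p = 0.029).

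**Figure D4:**
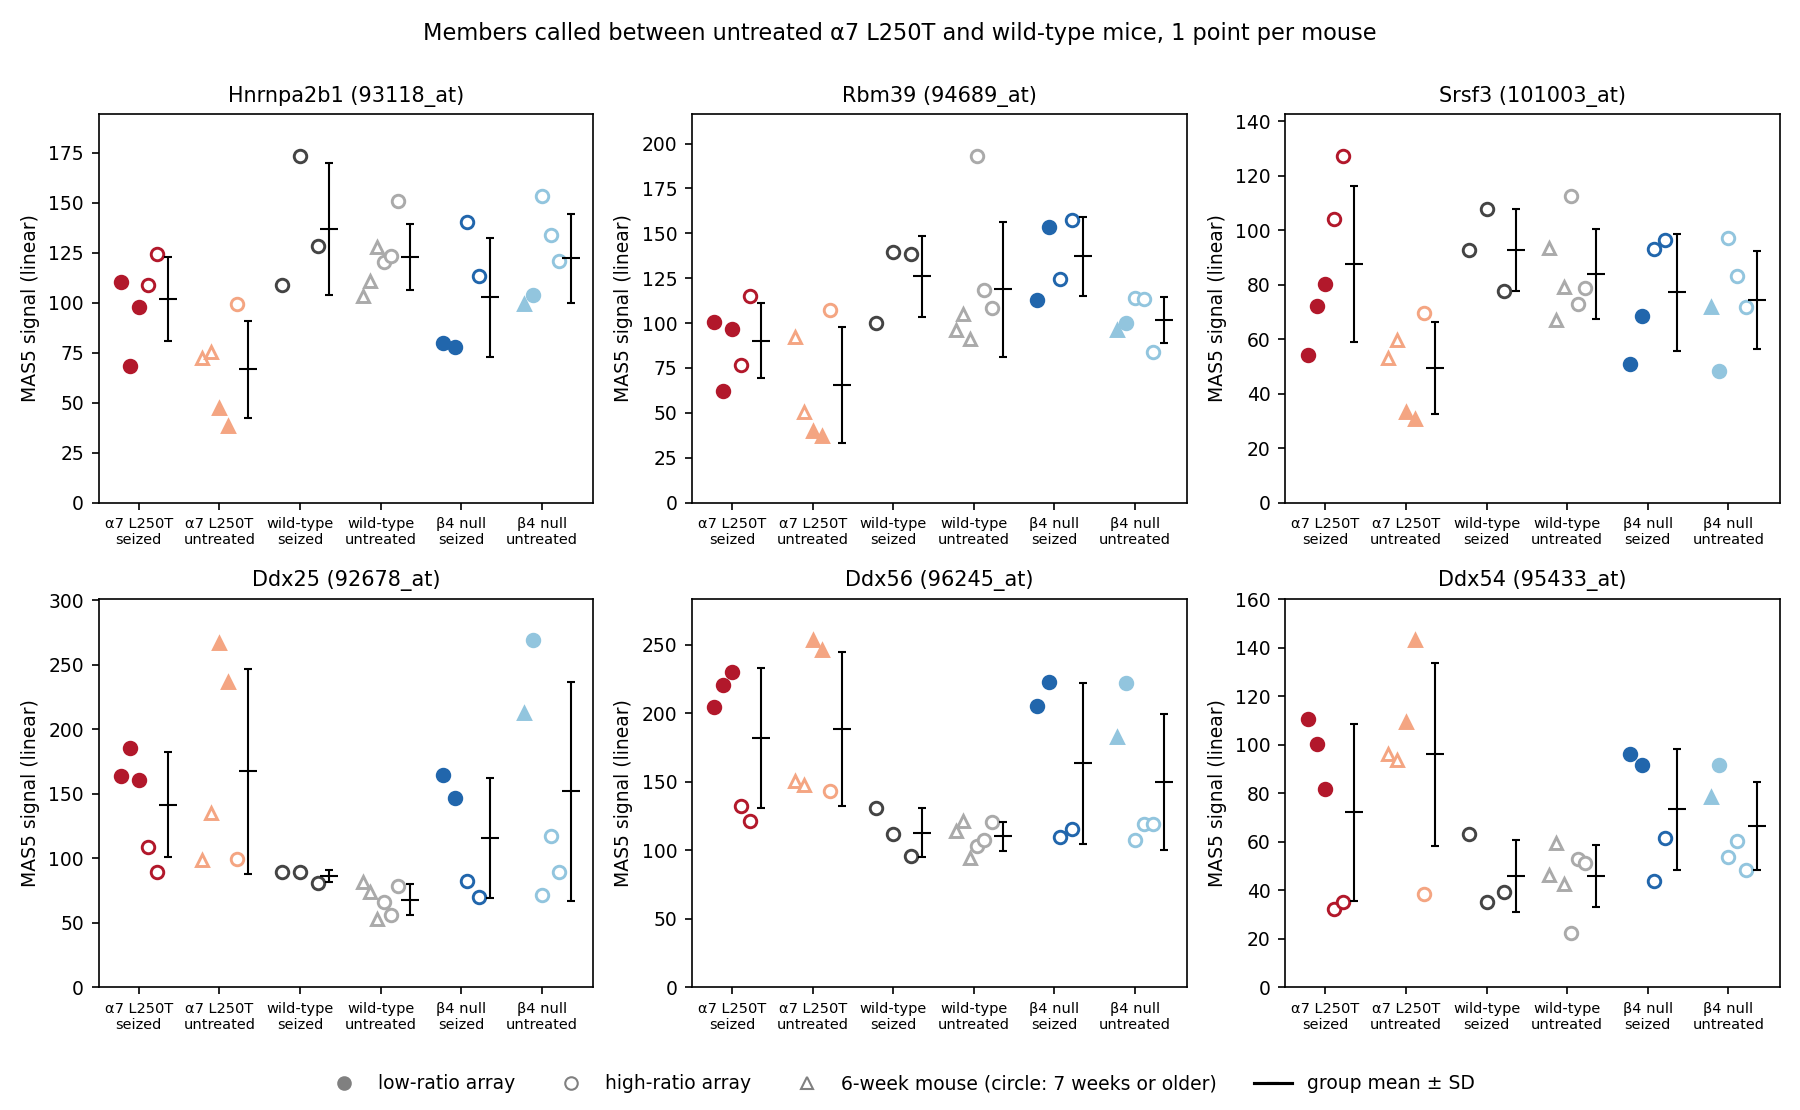
MAS5 signal on a linear scale for each mouse in the 6 groups, for 3 members called lower and 3 called higher in untreated alpha7 L250T than in untreated wild-type mice. Symbols and bars are as in the plot of the members called after seizure. For Ddx25 and Ddx56 the low-ratio arrays are the highest of both alpha7 L250T and both beta4 null groups.

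Many members also differed with array class. Low-ratio and high-ratio arrays of the same groups differed in 46 of 103 member probe sets (44.7%; limma, adjusted p under 0.05), 24 higher and 22 lower, against a background of 52.1% (26.7% higher and 25.4% lower). The Ddx family held 13 of the higher calls and 3 of the lower ones, while no Dhx probe set was called. Wild-type mice had no low-ratio array, so genotype and class are partly joined in this comparison. With class as a covariate, 15 of the 17 members remained called. With age as a covariate 8 remained, and against wild-type mice titled LT alone none was called. Of all probe sets, 9.1%, 7.63% and 0.0816% were called in these fits. Those shares take in every call of a fit and are not shares of calls that remained. How many of all the reported calls remained was not counted. The members that lost the call with class as a covariate were Ddx54 (0.62; limma, adjusted p = 0.11) and Hnrnpr (-0.43; limma, adjusted p = 0.0565). In that same fit Ddx25, Ddx56, Ddx17 and Snrpe had smaller differences of 0.75, 0.40, -0.56 and -0.42. On high-ratio arrays alone (3 alpha7 L250T against 6 wild-type mice) none was called, and the same 6 members had 0.68, -0.39, 0.71, 0.42, -0.59 and -0.40. Among mice of 7 weeks or older none was called either, with a single untreated alpha7 L250T mouse left, and Ddx54 and Srsf11 changed sign (-0.027 and 0.055). Leaving out untreated alpha7 L250T mouse 3, 4 or 5 gave 2, 5 or 30 member calls, beside 0.816%, 1.96% or 27.8% of all probe sets. Leaving out untreated wild-type mouse 3 or 5 gave 9 each, beside 6.97% or 8.49%.

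**Figure D5:**
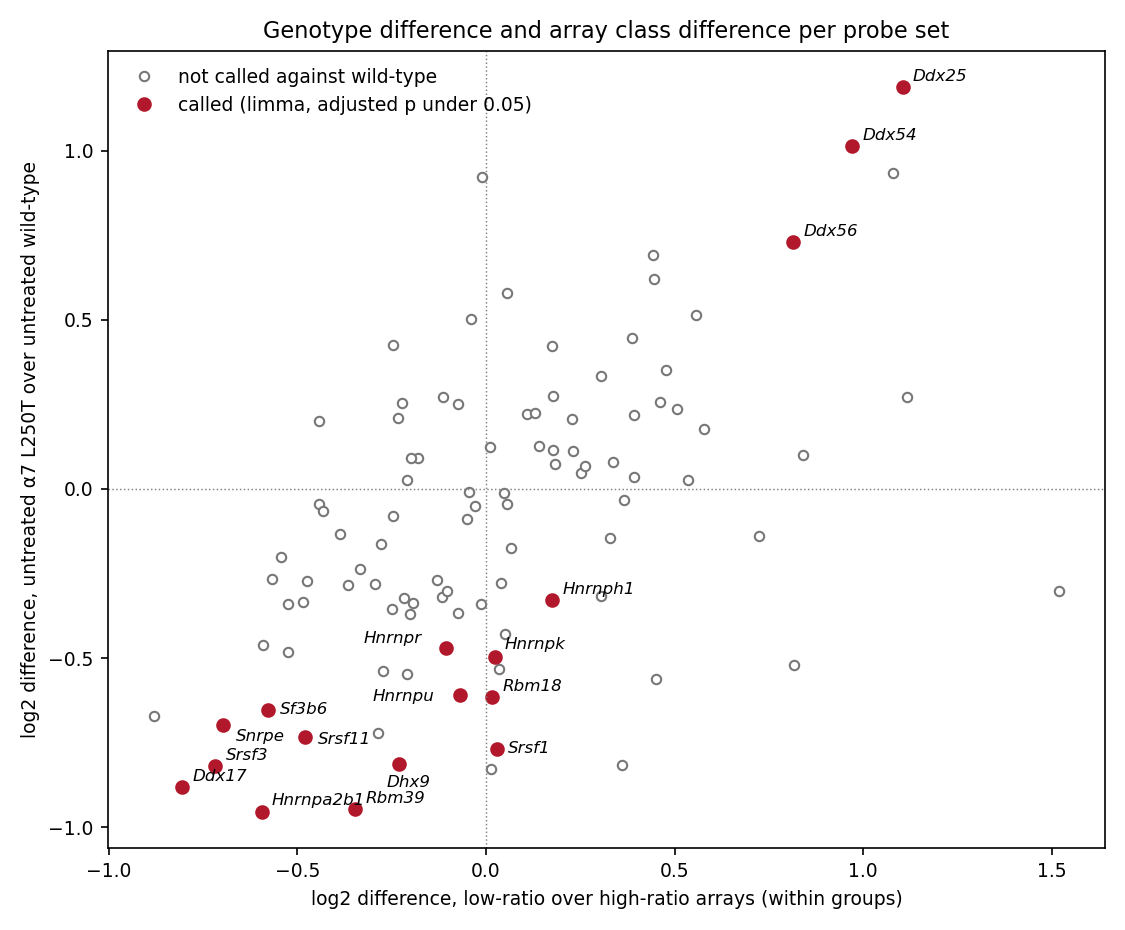
Log2 difference between untreated alpha7 L250T and untreated wild-type mice (vertical) against the log2 difference between low-ratio and high-ratio arrays within groups (horizontal), 1 point per tested member probe set. The 3 higher calls lie between 0.81 and 1.10 on the class axis, while Hnrnpk, Srsf1 and Rbm18 lie near 0 on it.

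Centring each array on its median in place of the deposited scaling moved the median of all probe sets in this comparison to -0.18, against 0.063 as deposited. It gave 30 member calls, 1 higher and 29 lower. Over all probe sets it gave 1447 calls (19.7%), 191 higher and 1256 lower, so the turn toward lower calls was shared by the whole array. Quantile normalization gave 18 member calls, 2 higher and 16 lower, beside 1019 (13.9%) over all probe sets, 373 higher and 646 lower.

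Beta4 null mice differed from wild-type mice in no member by limma. Untreated, 0 of 103 were called against a background of 0.0136%, with 11 (10.7%) at an unadjusted p under 0.05, against 12.9% of all probe sets. After seizure, 0 of 103 were called against 0.0136%, with 3 (2.91%) at an unadjusted p under 0.05, against 4.42% of all probe sets. Untreated, Hnrnph2 was at 0.49 ± 0.27 and Hnrnpm at -0.29 ± 0.17 relative to wild-type mice. After seizure they were at 0.23 ± 0.34 and -0.04 ± 0.21. Over all 6 groups, an F test called 4 of 103 members (Hnrnpk, Hnrnph2, Hnrnpa2b1 and Srsf1) against 2.23% of all probe sets.

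Other RNA processing genes, outside the 7 prefixes, were followed on 4 lists with 91 tested probe sets of 75 genes. After seizure in alpha7 L250T mice 1 rose and 0 fell (1.1%, against 2.8% of all probe sets). It was Tardbp, which encodes the splicing repressor TDP-43, at 0.67 ± 0.15 (limma, adjusted p = 0.013). No other comparison after seizure and no comparison of beta4 null with wild-type mice called any of the 91 by limma. In untreated alpha7 L250T against wild-type mice 7 were higher and 13 lower, which is 20 of 91, against 16% of all probe sets. Lower ones included the splicing regulators Celf2 (-0.73 ± 0.16), Tra2b (-0.71 ± 0.21), Mbnl1 (-0.75 ± 0.26) and Qk (-0.84 and -0.58 on its 2 called probe sets), and the SR protein kinases Clk1 (-0.61 ± 0.17) and Clk4 (-0.61 ± 0.15). Higher ones included the splicing regulator Pcbp4 (0.95 ± 0.32) and, on the list of SR protein kinases and cofactors, Cdk11b (0.92 ± 0.28). In all, 1 of the regulators was higher and 6 lower, and on the kinase and cofactor list 1 was higher and 3 lower. Also higher were Puf60 (0.94 ± 0.27), which aids recognition of the 3 prime splice site, and Prpf6 (0.46 ± 0.14), a scaffold of the tri-snRNP. The Sm-like protein gene Lsm4 (0.64 ± 0.18) was higher, whereas Lsm3 (-0.66 ± 0.17) and Lsm7 (-0.45 ± 0.15) of the same ring family were lower.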

How the data were processed

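The deposited values were signal intensities on a linear scale, computed by the authors with MAS5 according to the submitters' processing notes, for RNA of 28 whole brains on Affymetrix U74Av2 arrays. Detection calls were not used here. With 1 array a mouse, precision rests on how many arrays a group has. Of 12488 probe sets, 66 controls were left out. The platform annotation gave 1 gene to 10833 probe sets and several to 396, and did not list 1193. Of those 396, 10 had a symbol with a member prefix and were not counted as members. All 87 member symbols matched a RefSeq gene table.

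After log2, 7350 probe sets (59.2%) lay above their own array's median on at least 3 arrays and were fitted with limma 3.58.1 in R 4.3.3 (lmFit, then eBayes with trend), using 6 group means over all 28 arrays. P-values are two-sided, with Benjamini-Hochberg adjustment over those 7350 and a threshold of 0.05, and errors of log2 differences are SE. The fit was tested on simulated data. Array class splits arrays at a Gapdh ratio of 0.5 (log2). Replicates are separate mice.

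Named members are Hnrnph2 and Hnrnpm, those called in a comparison (up to 12 in each direction), the 3 leading members of each family over the 6 groups and the 2 leading after seizure in alpha7 L250T mice, a list of textbook members, and further probe sets of the same genes. Of 30 textbook members, 24 had a probe set with a single gene symbol. Some of the others were listed only on probe sets with several symbols, which were fitted but not counted as members. The members, lists and rules were chosen with earlier results of these data known, and Ddx49 was named after its value was seen. Alternatives were quantile normalization, median centring, no filter or one of 14 arrays, a floor at a signal of 11.6, no trend, array weights, covariates (sex, age, array class), subsets by age, array class or title prefix, the compared groups alone, and each mouse left out. The comparison within 6-week mice titled LT was added after seeing the data.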

Additional observations from a re-analysis of the deposited data

Results flagged for a closer look

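Of 95 checks of 19 named probe sets within groups of 4 to 6 mice, 5 found a mouse standing apart, and chance flags about 1 in 20. After seizure, Dhx9 was highest at 156.7 and Hnrnpu at 157.4 in beta4 null mouse 1, a low-ratio array, where the next mice were at 125.5 and 111.5. Rbm18 was lowest at 157.0 in seized alpha7 L250T mouse 2, also a low-ratio array, next to 244.1. In untreated wild-type mouse 4, of 9 weeks, Ddx54 was lowest at 22.3, next to 42.75, and Rbm39 was highest at 193.2, next to 118.7.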

How the results depend on the processing

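No paired analysis was possible because the labels give mouse numbers but no replicate number shared between groups. Values here are counts of the 103 member probe sets called by limma, each with the share of all probe sets called in the same fit in parentheses, unless a gene is named. After seizure in alpha7 L250T mice the count was 6 (2.8%) as reported, 10 (3.46%) with sex as a covariate, 0 (0.163%) with age, 21 (13.3%) with array class, 2 (1.14%) with array class and age, 0 (0.109%) among mice of 7 weeks or older, 0 (0.177%) on high-ratio arrays alone, 20 (9.28%) on low-ratio arrays alone and 0 (0.0544%) with the compared groups alone. It ranged from 3 to 18 with 1 mouse left out (1.05% to 9.12%). For untreated alpha7 L250T against wild-type mice it was 17 (16%) as reported, 30 (19.7%) with median centring, 8 (7.63%) with age, 8 (6.1%) with array class and age, 0 (0.0544%) among mice of 7 weeks or older, 0 (0.0408%) on high-ratio arrays alone, 9 (7.32%) with the compared groups alone, 0 (0.0816%) against wild-type mice titled LT and 9 (9.22%) among 6-week mice titled LT, an alternative chosen after seeing the data. It ranged from 2 to 30 with 1 mouse left out (0.816% to 27.8%). For the average of genotypes it was 0 (0.408%) as reported, 15 (8.78%) with array weights and 1 (0.694%) with array class, and 0 to 2 with 1 mouse left out (0.245% to 0.925%). Array weights also gave 11 (13.7%) for seized alpha7 L250T and 22 (27.2%) for seized beta4 null against wild-type mice, each 0 as reported. Differences that changed sign among mice of 7 weeks or older were Dhx36 (-0.23) and Srsf4 (0.23) after seizure in alpha7 L250T mice, and Ddx54 (-0.027), Srsf11 (0.055), Hnrnph2 (0.27) and Hnrnpm (-0.40) in untreated alpha7 L250T against wild-type mice. Snrp1c-ps2 was at -0.49 after seizure in alpha7 L250T mice on low-ratio arrays. After seizure in beta4 null mice Hnrnpm was at 0.023 on high-ratio arrays, and Hnrnph2 at -0.056 without seized mouse 1, in a range of -0.056 to 0.30 with 1 mouse left out. In seized beta4 null against wild-type mice Hnrnph2 was at -0.11 with array class and age and -0.20 on high-ratio arrays, and Hnrnpm was at 0.018 with sex, 0.071 with array class, 0.11 with array class and age, 0.16 on high-ratio arrays, and 0.022 and 0.029 without seized beta4 null mouse 1 or 2, in a range of -0.17 to 0.029 with 1 mouse left out. The cause of these changes was not tested, except that subsets and compared groups alone hold fewer arrays.

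Age and treatment overlap in alpha7 L250T mice, where 4 of 5 untreated mice were 6 weeks old and all seized mice were 8 weeks old, and array class overlaps with genotype. Fits within an age or class rest on as few as 1 mouse in a group, which is then assumed to vary like the others. Probe sets of 1 gene can read different transcripts, and for Srsf1 they disagreed in sign. Weak probe sets were not tested, and a call that misses the threshold does not show that levels were alike.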

Other observations

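Of the probe sets with several gene symbols, which were not counted as members, one with a symbol of the Hnrnp prefix had the smallest p after seizure in alpha7 L250T mice among those with a member prefix, at 1.41 ± 0.17 (limma, adjusted p = 3.39e-05). It was lower in untreated alpha7 L250T than in untreated wild-type mice by -0.95 ± 0.17 (limma, adjusted p = 0.0025), and both comparisons share the untreated alpha7 L250T mice. It passed the test of a genotype difference in the seizure response (limma, adjusted p = 0.0264), which no member did. With age as a covariate, and on high-ratio arrays alone, that test called 0 of all 7350 probe sets. A second probe set with the same symbols gave 0.93 ± 0.42 after seizure (limma, adjusted p = 0.23). Its difference between untreated alpha7 L250T and untreated wild-type mice was 0.20, and it did not pass the test of a genotype difference (limma, adjusted p = 0.92). One with a symbol of the Rbm prefix was at 0.92 ± 0.18 after seizure (limma, adjusted p = 0.0058) and at -0.71 ± 0.17 against wild-type mice (limma, adjusted p = 0.0156). These genes are not named, since the annotation pairs each probe set with several.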
